A study of Mus musculus with 25 samples.

Results

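The genes described here are 30 genes of astrocytes, the star-shaped glia that support neurons. They were measured in the CA1 field of the hippocampus of handled and non-handled mice. A probe set, a group of short array probes read as 1 value, was taken for a member when the array's annotation named it for that gene alone. The 30 genes were 30 of 18193 named genes, and they held 71 of the 45101 probe sets on the array. For each gene the probe set with the highest mean signal led, and the others were kept beside it.

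The mice were inbred Balb c/J females. Handled pups were taken from the mother for 15 min daily on postnatal days 1 to 14, and non-handled pups stayed with her. Behaviour was tested at 8 weeks, and CA1 was dissected 2 weeks later. RNA was extracted with Qiagen RNA/DNA columns in 17 mice (7 handled and 10 non-handled) and with Trizol in 8 others (4 handled and 4 non-handled), amplified in a double round and labeled. Each mouse had its own array, an Affymetrix Mouse 430_2.0. The column mice were a second set of animals, so extraction method and set of animals cannot be told apart. All 25 mice thus share strain, sex, tissue and amplification. The study lists litters as handled or non-handled, with fewer litters than mice in each group. The labels do not tie mice to litters, so the tests treat each mouse, littermates included, as independent. They measure the spread between mice and not between litters, and can overstate the certainty of handling differences.

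Astrocytes take up the glutamate released at synapses and turn it into glutamine, which neurons reuse. They also move water and potassium, couple to each other through gap junctions, and make much of the brain's apolipoprotein. CA1 tissue holds neurons, oligodendrocytes, microglia and vessels as well, and several members (Apoe, Clu, Cpe, Vim, Id3, Htra1, Fabp7, Hes5, Sox9 and Glul) are also known from some of these cells. In bulk tissue, fewer cells of a type and less RNA per cell cannot be told apart. The defining markers Gfap, Aqp4, Gja1, Aldh1l1 and Slc1a3 were all measured, and the leading probe set of each of the 30 members lay at or above percentile 57.98 of mean signal among all probe sets.

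Arrays correlated with each other at 0.806 to 0.919 over all probe sets. The deposited signal is scaled by 1 factor per array, and the median signal over all probe sets still differed between groups. It was 79.6 to 95.9 in handled and 94.7 to 135 in non-handled column mice, and 115.9 to 142 in handled and 138 to 163 in non-handled Trizol mice. Quantile normalization, which gives every array the same distribution, moved the median log2 difference of all probe sets from -0.15 to 0.023 for handling and from -0.16 to 0.16 for extraction. Non-handled column mouse NH162 had the highest mean signal, 910, and the highest log2 ratio of 3' to 5' Actb control probes, 3.24, a measure of how far the amplified RNA ends short.

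The clearest difference among the astrocyte genes lay between the extraction methods. With columns, 24 of the 30 members were higher than with Trizol and 2 were lower, at an adjusted p under 0.05. Over all probe sets 16.5% were higher and 23.3% lower. Within the upper 50% by mean signal, the range that holds every leading probe set, 30.9% were higher and 29.8% lower. The median log2 difference of the members was 0.80, against 0.011 for the upper 50% and -0.16 for all probe sets. After quantile normalization it was 0.64, with 23 members higher and 3 lower, while the calls over all probe sets moved from 7430 higher and 10500 lower to 10756 higher and 8091 lower. The difference passed 0.5 log2 in 21 members and 1 log2 in 9.

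The intermediate filaments, which give astrocytes their cytoskeleton, were both higher with columns. Gfap, the filament protein by which astrocytes are most often stained, had log2 signals of 11.82, 12.13 and 12.45 (lowest, median, highest) in handled and 11.81, 12.20 and 13.17 in non-handled column mice. The 4 handled Trizol mice read 10.85, 10.87, 11.03 and 11.32, and the 4 non-handled 10.51, 10.87, 10.90 and 11.09. Every column mouse therefore lay above every Trizol mouse, and the difference was 1.25 ± 0.12 log2 (SE, adjusted p = 1.27e-10). Both other Gfap probe sets were also higher with columns, by 0.57 and 0.66 log2. Vim, vimentin, which immature and reactive astrocytes carry, differed by 1.11 ± 0.15 log2, again without overlap.

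In 10 of the 30 members all 17 column mice lay above all 8 Trizol mice. These were Aldoc, Atp1b2, Fgfr3, Gfap, Gpc5, Id3, Mlc1, Ntsr2, Plpp3 and Vim, and 3.33% of all probe sets were so placed.

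Genes of membrane, water and ion transport fell on both sides. Atp1b2, a beta subunit of the sodium pump that astrocytes carry, showed the largest difference of any leading probe set. Its log2 signals were 12.29, 12.49 and 12.67 in handled and 11.88, 12.25 and 12.65 in non-handled column mice. With Trizol they were 10.76, 10.92, 10.97 and 11.42 in handled mice and 10.31, 10.54, 11.07 and 11.20 in non-handled mice. The difference was 1.46 ± 0.10 log2 (adjusted p = 7.09e-14). Mlc1, a membrane protein of astrocyte endfeet, differed by 1.38 ± 0.12 log2. Aqp4, the water channel of the endfeet, was higher by 0.38 ± 0.10 log2 (adjusted p = 0.00157). Slc4a4, a sodium bicarbonate cotransporter, had a negative difference, -0.21 ± 0.08 log2 (adjusted p = 0.0278), with adjusted p up to 0.0689 with single mice left out, past 0.05 without H131, NH138 or NH146.

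Metabolic enzymes and lipid carriers were higher in 7 of 7. Acsbg1, an acyl-CoA synthetase, had log2 signals of 9.49, 9.89 and 10.03 in handled and 9.21, 10.05 and 10.61 in non-handled column mice. With Trizol they were 7.84, 8.00, 8.43 and 9.07 in handled and 8.61, 8.86, 9.02 and 9.43 in non-handled mice. It differed by 1.27 ± 0.15 log2, Plpp3, a lipid phosphatase, by 1.13 ± 0.10, and Aldh1l1, the folate enzyme used as an astrocyte marker, by 1.03 ± 0.13. Fabp7, a fatty acid binding protein, differed by 0.99 ± 0.13 log2, Aldoc, the brain aldolase, by 0.97 ± 0.10, and the secreted lipid carriers Apoe and Clu by 0.90 ± 0.11 and 0.84 ± 0.12. The range in this group, 0.84 to 1.27 log2, was narrow beside that of the members as a whole, -0.24 to 1.46.

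Genes of transmitter uptake had smaller differences. The log2 signal of Slc1a2 was 14.48, 14.61 and 14.72 in handled and 14.40, 14.64 and 15.08 in non-handled column mice, and lay between 14.07 and 14.53 in Trizol mice, so the methods overlapped. That of Slc1a3 was 11.99, 12.32 and 12.48, then 11.88, 12.32 and 13.05, against 11.46 to 12.17 with Trizol. Slc1a2 and Slc1a3, the main astrocyte glutamate transporters GLT-1 and GLAST, were higher by 0.31 ± 0.08 and 0.56 ± 0.11 log2, and Slc7a10, an amino acid transporter that moves serine and glycine, by 0.55 ± 0.11. Glul, glutamine synthetase, differed by 0.10 ± 0.09 (adjusted p = 0.389), and after quantile normalization by -0.19 (adjusted p = 0.0249), a call in the other direction. Slc1a2 was at 0.023 (adjusted p = 0.814) after that normalization. The difference of Slc6a11, the GABA transporter GAT-3, was 0.42 ± 0.25 (adjusted p = 0.20), and 0.83 after quantile normalization (adjusted p = 0.0115). The gap junction genes Gja1 and Gjb6, which build the channels that couple astrocytes, were higher by 0.31 ± 0.08 and 0.60 ± 0.11 log2. Gja1 read 14.22, 14.27 and 14.40 in handled, 14.08, 14.22 and 14.61 in non-handled column mice, and 13.79 to 14.30 in Trizol mice. After quantile normalization Gja1 differed by 0.0075 log2 (adjusted p = 0.943).

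The receptors and surface proteins were all higher, Ntsr2, a neurotensin receptor, by 0.94 ± 0.09 log2, Gpc5, a glypican, by 0.69 ± 0.09 and Fgfr3, a fibroblast growth factor receptor, by 0.62 ± 0.09. Of the transcription regulators, Id3 was higher by 1.1 ± 0.13 and Hes5 by 0.76 ± 0.16 log2, and Sox9, needed for making astrocytes, differed by 0.23 ± 0.15 (adjusted p = 0.242). The chemokine Cxcl14 and the secreted protease Htra1 were higher, by 1.06 ± 0.12 and 0.87 ± 0.11. The calcium binding protein S100b differed by 0.13 ± 0.12 (adjusted p = 0.448). Cpe, the carboxypeptidase that trims peptide hormones and is abundant in neurons, was lower, at -0.24 ± 0.09 log2 (adjusted p = 0.0397). Without any 1 of 8 mice (H116, H117, H130, H131, NH138, NH147, NH165 or NH166) the adjusted p of Cpe was past 0.05, at most 0.0936.

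**Figure D1:**
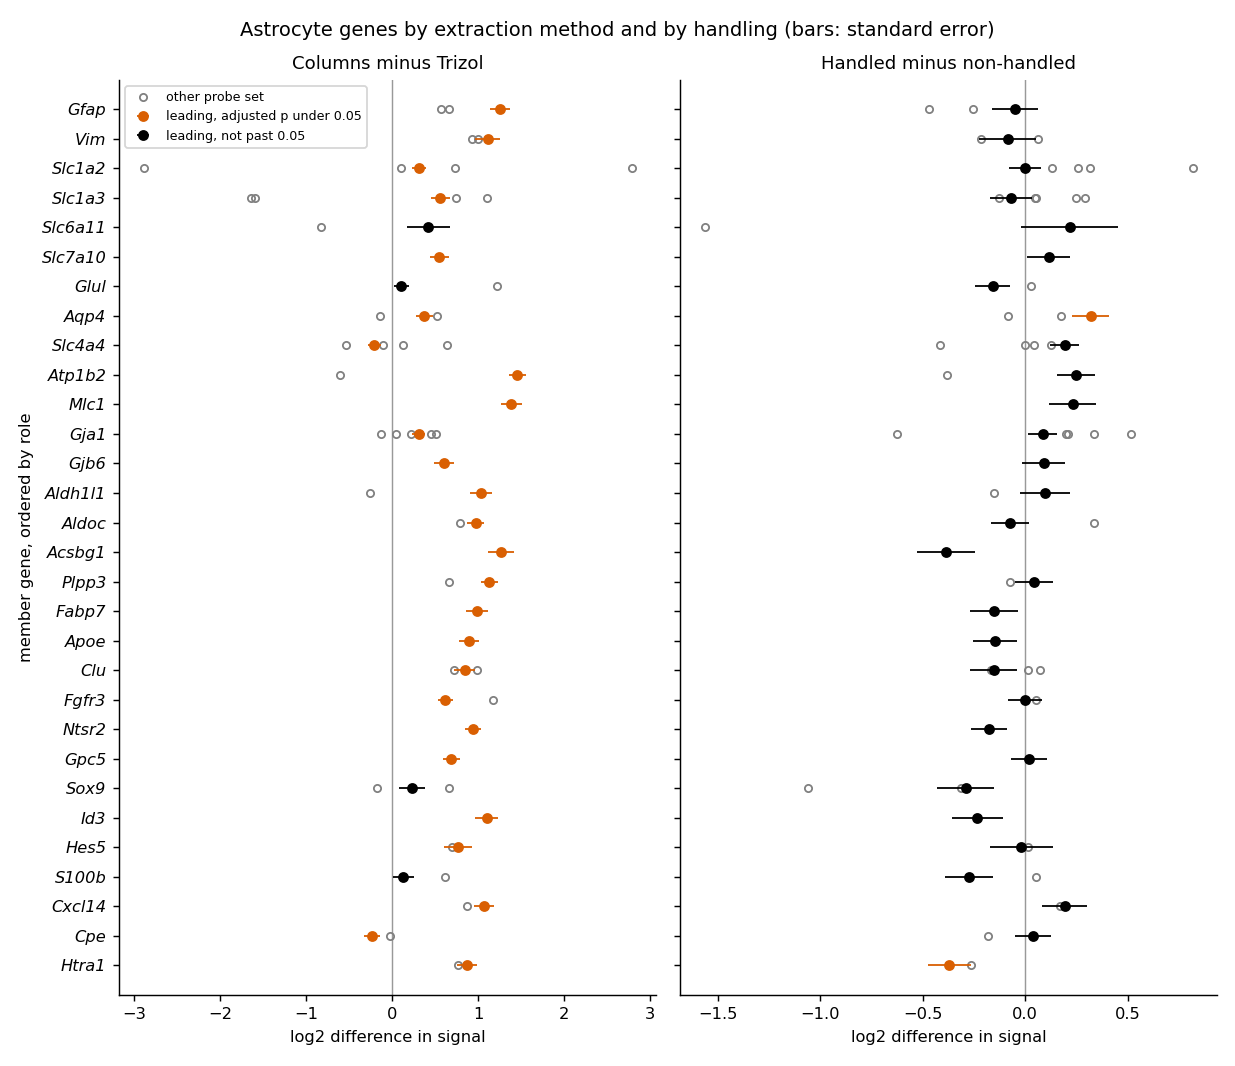
Log2 difference in signal of each of the 30 astrocyte genes between extraction methods (left) and between handled and non-handled mice (right), with the leading probe set filled, its standard error as a bar, and the other probe sets open. On the left 24 leading probe sets are higher past an adjusted p of 0.05 and on the right 1 is higher (Aqp4) and 1 lower (Htra1).

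Genes outside the 30 moved in the same comparison. Of 33 further astrocyte genes measured, 24 were higher with columns, with a median of 0.59 log2. Markers of some other cells were higher too, in 9 of 10 microglial genes (median 0.89), 9 of 11 pyramidal and general neuronal genes (0.64) and 8 of 9 oligodendrocyte genes (0.52). The 8 dentate and CA3 genes leaned the other way, with 1 higher, 4 lower and a median of -0.50. Of 11 endothelial and mural genes 5 were higher and 1 lower, and of 8 interneuron genes 4 and 0. Of 6 meningeal genes 3 were higher and 0 lower, and of 5 precursor genes of oligodendrocytes 4 and 0. Of 10 ependymal and choroid plexus genes 1 was higher and 1 lower, and of 19 reactive astrocyte genes 5 and 0. The summed signal of the 10 microglial genes, all of them in the upper 50%, was 27394 to 42008 in column mice and 14836 to 19520 in Trizol mice. That of the 30 members was 231257 to 334287 with columns and 168591 to 222498 with Trizol, so the ranges were separate for both lists. They were also separate for the 33 further astrocyte genes (131535 to 185910 against 88474 to 115740), the 19 reactive astrocyte genes (5282 to 6733 against 3227 to 4114), the 11 neuronal genes (108402 to 132610 against 83949 to 102422) and the 5 precursor genes of oligodendrocytes (8191 to 14785 against 5058 to 7790). Those of the 9 oligodendrocyte genes overlapped, with 66866 to 112952 against 49811 to 76406. So did those of the dentate and CA3, interneuron, endothelial and mural, ependymal and choroid plexus, and meningeal lists. The log2 ratio of 3' to 5' Gapdh control probes averaged 1.32 and 1.26 in handled and non-handled column mice and 1.76 and 1.67 in Trizol mice. With this ratio and that of Actb in the fit, a setting chosen after the data were seen, 22 members were higher and 0 lower and the median was 0.84 log2. The calls lost were those of Aqp4 (adjusted p = 0.0613), Gjb6 (adjusted p = 0.101), Slc4a4 (adjusted p = 0.247) and Cpe (adjusted p = 0.582). The part of other cells and of RNA ends in the difference was otherwise not tested.

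Probe sets of 1 gene did not always move alike. Of the 41 probe sets that did not lead, 23 were higher with columns and 4 lower, and 30 had the sign of their gene's leading probe set. Calls went both ways in Atp1b2, Slc1a2 and Slc1a3, where each lower call came from a dim probe set, with a mean signal of 36.2 to 107, under the 115 that bounds the upper 50%. Sizes of differences at such low signal are uncertain. In Slc1a2, the probe set 1459014_at was higher by 2.79 log2, with 178 to 415 signal units in column and 12.5 to 87.9 in Trizol mice, while 1433094_at differed by -2.89, with 7.45 to 130 against 169 to 395. Both lay well under the leading probe set of that gene, whose difference was 0.31 log2. In Glul, 1426235_a_at was higher by 1.22 log2, where the leading probe set did not pass the test.

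The mean over the 30 members put the mice into clearly separate ranges by extraction. On a log2 scale relative to the mean of all mice, it was 0.21 ± 0.09 (SD, n = 7) in handled and 0.24 ± 0.13 (n = 10) in non-handled column mice. It was -0.50 ± 0.08 (n = 4) in handled and -0.48 ± 0.19 (n = 4) in non-handled Trizol mice. The lowest column mouse, NH142, read -0.016 and the highest Trizol mouse, NH147, -0.27. With extraction in the fit, handled minus non-handled was -0.025, against a spread between mice of 0.12 within groups. Without the 10 members also known from other cells it was 0.041.

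**Figure D2:**
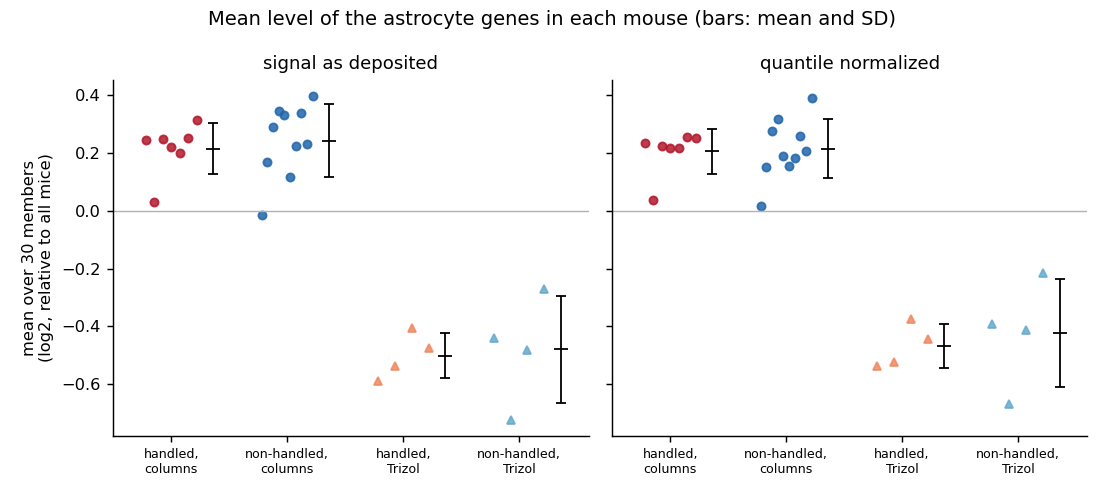
Mean log2 level over the 30 members in each mouse, relative to the mean over all mice, by handling and extraction, as deposited (left) and after quantile normalization (right), with group means and SD. All 17 column mice lie above all 8 Trizol mice in both panels, and handled and non-handled mice overlap within each method.

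Handling, the question of the study, moved few astrocyte genes. Over all 25 mice, with extraction in the fit, 1 member was higher in handled mice and 1 lower. Over all probe sets 3.58% were higher and 7.93% lower, and in the upper 50% 6.95% and 9.11%, so the member counts lay at or under the background. The median log2 difference of the members was -0.011, against -0.014 for the upper 50%. No member differed by more than 0.5 log2, 13 of 30 had a positive difference, and 7 had an unadjusted p under 0.05. Shares of all probe sets at an unadjusted p were not counted, here or below, so such member counts have no background beside them.

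The higher gene was Aqp4. In column mice its log2 signal was 11.90, 12.09 and 12.21 (lowest, median, highest) in handled and 11.35, 11.66 and 12.10 in non-handled animals. In Trizol mice it was 11.22, 11.44, 11.60 and 11.91 in handled and 11.20, 11.27, 11.40 and 11.73 in non-handled animals. Of the 10 non-handled column mice only 2, NH162 and NH170, reached the range of the handled ones, and with Trizol the groups overlapped throughout. The difference over all mice was 0.32 ± 0.09 log2 (SE, adjusted p = 0.0195). After quantile normalization it was 0.27 log2 (adjusted p = 0.0697), and without the extraction term 0.29 (adjusted p = 0.139). With single mice left out it was 0.29 to 0.36 log2, with adjusted p of 0.00698 to 0.0388. The other probe sets of Aqp4 differed by 0.17 (adjusted p = 0.191) and -0.085 log2 (adjusted p = 0.819).

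The lower gene was Htra1, a protease that cuts extracellular matrix. Its log2 signal was 13.20, 13.61 and 13.86 in handled and 13.63, 14.03 and 14.50 in non-handled column mice. With Trizol it was 12.23, 12.98, 13.05 and 13.08 in handled and 12.87, 12.88, 13.09 and 13.37 in non-handled mice. With columns the lowest values were those of handled mice. With Trizol 1 handled mouse, H113, was lowest at 12.23, and the next values, 12.87 and 12.88, were of non-handled mice. The groups overlapped under both methods. The difference was -0.37 ± 0.10 log2 (adjusted p = 0.0203), and without handled mouse H109 the adjusted p was 0.0504. Without the extraction term it was -0.44 log2 (adjusted p = 0.173). Its other probe set differed by -0.26 log2.

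By size the next were Acsbg1, which differed with handling by -0.39 ± 0.14 log2 (adjusted p = 0.0698), Sox9 by -0.29 ± 0.14 (adjusted p = 0.17), S100b by -0.28 ± 0.12 (adjusted p = 0.119) and Atp1b2 by 0.25 ± 0.09 (adjusted p = 0.0825). By leading probe set, all 4 genes of membrane, water and ion transport had positive differences, from 0.19 to 0.32 log2, of which Aqp4 alone passed. Other probe sets did not all share the sign. That of Atp1b2 differed by -0.38 log2, and the 5 of Slc4a4 ran from -0.42 to 0.19. The leading probe sets of all 3 transcription regulators had negative differences, from -0.29 to -0.02 log2, and none passed. The other probe set of Hes5 differed by 0.01. The difference of Gfap was -0.05 ± 0.11 log2 (adjusted p = 0.816) and that of Slc1a2 -0.002 ± 0.08 (adjusted p = 0.99).

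In column mice alone, 1 member was higher in handled animals and 4 were lower. Over all probe sets 4.4% were higher and 8.18% lower, and in the upper 50% 8.53% and 9.36%. An unadjusted p under 0.05 was reached by 12 members, with no share of all probe sets counted at that threshold. Aqp4 was higher by 0.40 ± 0.11 log2 (adjusted p = 0.0133), and by 0.34 after quantile normalization (adjusted p = 0.0507). The lower genes were Htra1 at -0.44 ± 0.13 (adjusted p = 0.0205), Glul at -0.29 ± 0.09 (adjusted p = 0.0366), Sox9 at -0.49 ± 0.16 (adjusted p = 0.0424) and S100b at -0.41 ± 0.14 (adjusted p = 0.0476). The median over the members was -0.044 log2. No member had separate ranges in handled and non-handled column mice, where 1.63% of all probe sets did.

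Glul, which makes glutamine from the glutamate that astrocytes take up, had log2 signals of 14.24, 14.49 and 14.72 in handled and 14.46, 14.78 and 15.14 in non-handled column mice. Sox9 read 8.74, 9.34 and 9.54 against 8.82, 9.70 and 10.15, and S100b 10.70, 11.31 and 11.54 against 11.16, 11.61 and 12.20. In all 3 genes the ranges overlapped, and in Sox9 the second lowest of the 17 mice was non-handled (NH162, 8.82). Quantile normalization took Glul to -0.17 log2 (adjusted p = 0.178) and Sox9 to -0.48 (adjusted p = 0.0656). With the 17 column arrays fitted alone, the adjusted p of Glul was 0.0504 and that of S100b 0.0678. Leaving out single mice took the adjusted p of Glul to between 0.015 and 0.091, of Sox9 to between 0.00764 and 0.109, and of S100b to between 0.025 and 0.138. In column mice the other probe set of Glul differed by only -0.0047 log2, and that of S100b by 0.10, with the opposite sign. The 3 probe sets of Sox9 ran from -1.27 to -0.05 log2, and 2 of them were called lower.

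**Figure D3:**
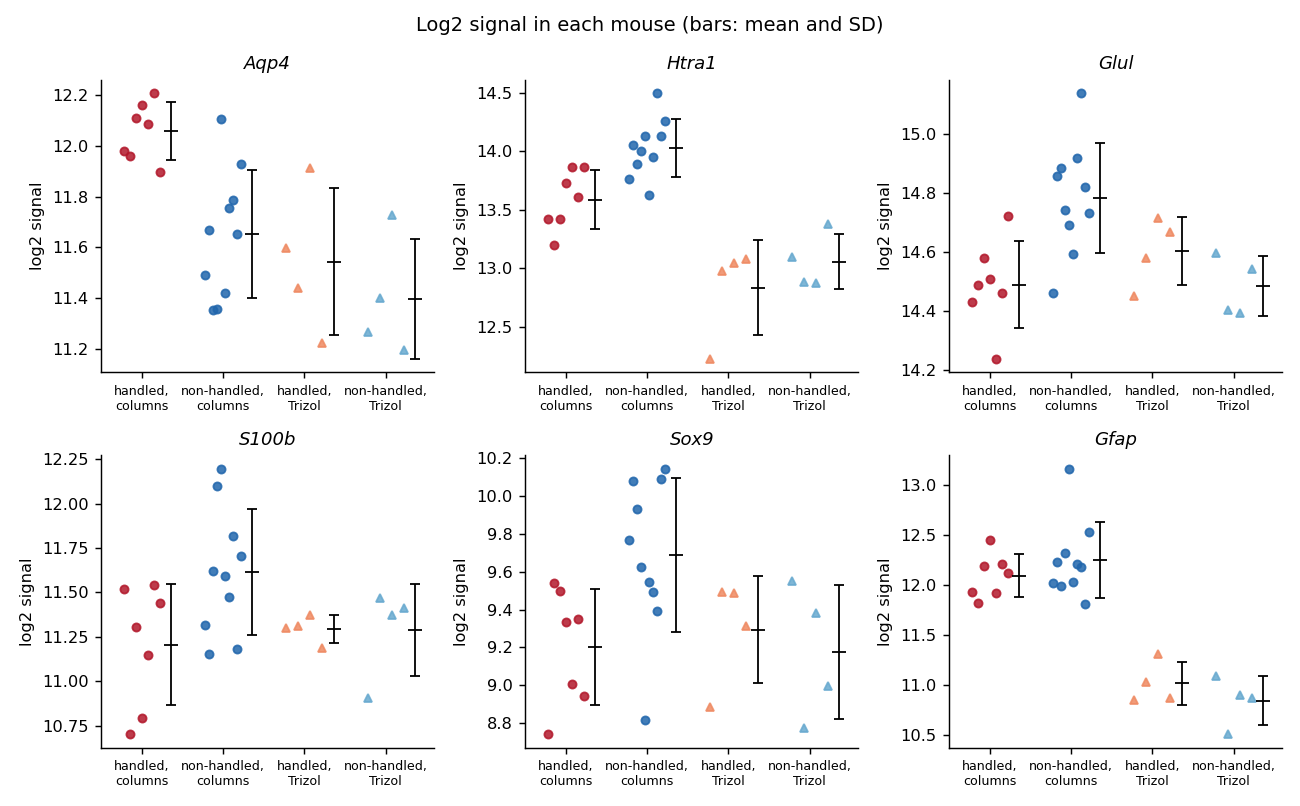
Log2 signal of 5 members called in column mice, and of Gfap, in each mouse by handling and extraction, with group means and SD. Handled and non-handled mice overlap in every panel, and the Gfap values of all column mice lie above those of all Trizol mice.

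In Trizol mice alone, 0 of 30 members and 0.0% of all probe sets passed, with 3 members at an unadjusted p under 0.05. No member had separate ranges, where 3.85% of all probe sets did. With 4 against 4 mice the standard errors were wider, 0.12 to 0.41 log2. Aqp4 differed by 0.15 ± 0.15 and Htra1 by -0.22 ± 0.18 log2, both with the sign they had in column mice. Sox9 and Glul differed by 0.12 ± 0.23 and 0.12 ± 0.14, with the opposite sign.

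The sign of the handling difference was the same with columns and with Trizol in 14 of 30 members (46.7%), and in 64.9% of named genes in the upper 50%. The 2 comparisons share no mice. The difference between the methods was itself tested: 0 of 30 members passed, beside 0.0511% of all probe sets. At an unadjusted p under 0.05 there were 4 members, with no share of all probe sets counted at that threshold. Plpp3 had the smallest adjusted p, with a difference between methods of 0.55 ± 0.18 log2 (adjusted p = 0.473). It was 0.22 ± 0.10 with columns and -0.32 ± 0.14 with Trizol.

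Probe sets that did not lead gave 3 higher and 3 lower calls for handling over all mice, among 41, and 16 had the sign of their leading probe set. In column mice they gave 6 higher and 3 lower calls, and 19 had that sign. Slc1a2 and Slc1a3 each had 1 higher call in column mice, where their leading probe sets were not called. Gja1 was represented by 6 probe sets. Its leading one differed by 0.08 ± 0.07 log2 (adjusted p = 0.462), while 1415800_at was higher by 0.34 ± 0.09 (adjusted p = 0.0105) and 1438650_x_at by 0.51 ± 0.14 (adjusted p = 0.0166). In signal units, 1415800_at read 12400 to 16200 in handled and 8430 to 12900 in non-handled column mice. In column mice a further one, 1438973_x_at, was lower, at -0.96 ± 0.31 log2 (adjusted p = 0.0412), so the calls for this gene went both ways. Aldoc had 1 higher probe set, 1424714_at, at 0.34 log2 (adjusted p = 0.0121), where its leading one differed by -0.08. Gfap had 1 lower, 1426509_s_at, at -0.47 log2 (adjusted p = 0.047). The lower probe sets of Slc6a11 (1453871_at) and Sox9 (1433889_at) read 2.28 to 77.7 and 8.53 to 226 signal units, under the bound of the upper 50% in some or all mice.

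Of the 33 further astrocyte genes measured, 3 were higher with handling over all mice and 2 lower, with a median of 0.0002 log2. Bcan, brevican, a matrix proteoglycan, was lower, at -0.71 ± 0.09 log2 (adjusted p = 3.08e-06), and Elovl2, an enzyme that lengthens fatty acids, was higher by 0.42 ± 0.09 (adjusted p = 0.0028). Of 19 genes known to rise in reactive astrocytes, 8 of them in the upper 50%, 0 were higher and 1, Timp1, was lower.

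Some markers of other cells moved in the same comparison. Of 10 ependymal and choroid plexus genes 2 were lower, Folr1 at -0.86 ± 0.25 log2 and Clic6 at -0.63 ± 0.17. The summed signal of that list was 980 to 1620 in handled and 1048 to 2716 in non-handled column mice, and 874 to 1504 against 1224 to 3634 with Trizol. Of 8 interneuron genes 2 were higher, Gad2 and Gad1, and 1, Pvalb, was lower. Of 11 endothelial and mural genes 0 were higher and 2 lower, of 10 microglial genes 1 and 1, of 5 precursor genes of oligodendrocytes 1 and 0, of 6 meningeal genes 0 and 1, of 11 pyramidal and general neuronal genes 0 and 1, and of 9 oligodendrocyte and 8 dentate and CA3 genes none. The array's median signal was lower in handled mice, as given above. The part of these markers, and of the median signal beyond the quantile normalized values, in the calls of members was not tested.

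With the 4 group means taken off, members moved together from mouse to mouse more often than named genes at large. The median Pearson r over the 435 pairs of members was 0.183, against 0.004 over all pairs of named genes in the upper 50%. Of the member pairs 18.6% had r over 0.5 and 1.38% under -0.5, against 3.87% and 3.20%. These values rest on 25 mice with 21 residual degrees of freedom, and the points share array, scaling and amplification. The median was 0.211 in column mice alone, 0.242 in Trizol mice alone, 0.159 after quantile normalization and 0.119 with the mean over all probe sets of a gene, and it ran from 0.157 to 0.206 with single mice left out. Of the 435 pairs, 311 were positive, and 267 had the same sign under both methods. Neither count was made over pairs of named genes at large, so they have no background beside them.

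Other pairs are given as a description, as the highest and lowest of the 435. The closest was Aldoc and Apoe, a glycolytic enzyme and a lipid carrier (r = 0.83, Spearman rho = 0.82). Apoe and Clu followed (0.82 and 0.74), then Clu and Slc1a2 (0.81 and 0.72) and Aldoc and Ntsr2 (0.77 and 0.62). Quantile normalization left r = 0.65 for Aldoc and Apoe and 0.60 for Apoe and Clu, and 0.23 for Clu and Slc1a2. Atp1b2 and Mlc1, both of the cell membrane, had r = 0.76, and 0.75 after quantile normalization.

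The 250 bases before the start of Aldoc and Apoe, the pair that moved most closely together, are shown so that the letters near both starts can be compared. They are RefSeq sequences of build GRCm38.p6, Aldoc at chr11:78322823-78323072 on the plus strand and Apoe at chr7:19699189-19699438 on the minus strand. Capitals mark TTGGC, the letters known as an NFI half-site, and ACAAT, a core known for SOX factors, or their reverse complements, and each promoter holds 1 of each.
Aldoc: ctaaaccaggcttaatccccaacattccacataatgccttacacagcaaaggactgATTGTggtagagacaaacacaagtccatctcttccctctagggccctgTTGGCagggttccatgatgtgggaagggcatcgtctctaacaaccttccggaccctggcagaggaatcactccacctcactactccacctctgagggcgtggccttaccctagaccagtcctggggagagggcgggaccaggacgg
Apoe: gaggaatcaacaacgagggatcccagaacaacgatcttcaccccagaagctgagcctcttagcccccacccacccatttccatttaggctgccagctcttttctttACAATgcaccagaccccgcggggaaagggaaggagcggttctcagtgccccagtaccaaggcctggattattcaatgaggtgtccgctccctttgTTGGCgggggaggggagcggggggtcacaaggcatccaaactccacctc
In Aldoc the TTGGC match lies 146 bases and the ACAAT match 194 bases before the start, and in Apoe 49 and 144. Of 25 members with a promoter in the reference table, 16 (64.0%) held TTGGC on either strand, against 41.9% of 27025 promoters of the same length. ACAAT was held by 5 (20%) against 28.3%, TTCNNNGAA, the form bound by STAT factors, by 4 (16%) against 7.18%, and TATAAA by 3 (12%) against 13%. A match in this window is a description of its letters and not a site.

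**Figure D4:**
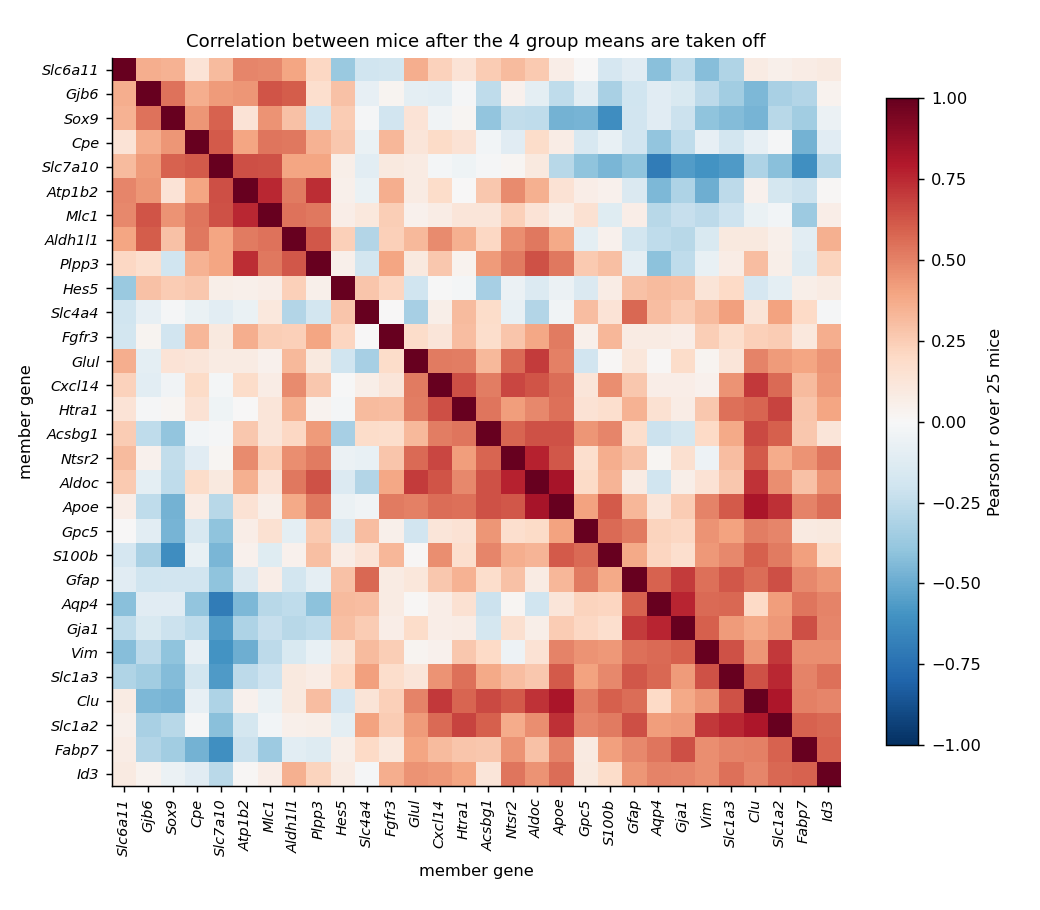
Pearson r between the 30 members over 25 mice, after the 4 group means are taken off, with genes ordered by average linkage of 1 minus r. A large positive block holds Gfap, Aqp4, Gja1, Clu and Slc1a2, a smaller one holds Slc7a10, Atp1b2, Mlc1 and Plpp3, and the lowest pair is Aqp4 and Slc7a10 (-0.70). Within the large block r was 0.20 for Aqp4 and Clu and 0.38 for Clu and Gja1. For these pairs it was 0.47 and 0.69 in column mice, -0.41 and -0.28 in Trizol mice, and -0.03 and -0.41 after quantile normalization.

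The 3 pairs among Gfap, Aqp4 and Gja1, 3 of the defining markers of astrocytes, were tested by permutation of mice within groups. Aldh1l1 and Slc1a3, the other defining markers named above, were not tested in this way. To Gfap, Aqp4 and Gja1, Aldh1l1 had negative r (-0.18, -0.26 and -0.27) and Slc1a3 positive r (0.62, 0.57 and 0.43). Aqp4 and Gja1 had r = 0.76 (permutation p = 0.00021, adjusted over the 3 pairs 0.00063) and rho = 0.74 (p = 0.00047, adjusted 0.00141). Gfap and Gja1 had r = 0.70 (p = 0.00152, adjusted 0.00228) and rho = 0.50 (p = 0.0143, adjusted 0.0179). Gfap and Aqp4 had r = 0.59 (p = 0.0044, adjusted 0.0044) and rho = 0.49 (p = 0.0179, adjusted 0.0179). Without the pair of mice farthest from the median, NH162 in each case with H130 or NH167, r was 0.60, 0.54 and 0.49. Within column and Trizol mice, r was 0.69 and 0.87 for Aqp4 and Gja1, 0.78 and 0.59 for Gfap and Gja1, and 0.71 and 0.34 for Gfap and Aqp4. After quantile normalization r was 0.62 for Aqp4 and Gja1 and 0.57 for Gfap and Aqp4, and 0.25 for Gfap and Gja1.

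Over all probe sets, a fit of each on the level of 1 of these markers called 0 of the 29 other members for each of Gfap, Aqp4 and Gja1, beside 0.833%, 0.0688% and 0.0733% of all probe sets. At an unadjusted p under 0.05 there were 12, 9 and 7 members, and the share of all probe sets at that threshold was not counted. On Gja1 the smallest adjusted p among members was that of Aqp4, 0.0546, with Gfap at 0.0586. The smallest adjusted p on Gfap was that of Slc1a3, 0.0648, and on Aqp4 that of Slc7a10, 0.0757, with a negative slope of -0.85 log2 per log2.

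Members were not of 1 pattern. Slc7a10 had negative r to Aqp4 (-0.70), Fabp7 (-0.61), Vim (-0.59), Slc1a3 (-0.57), Gja1 (-0.56) and Gfap (-0.40), and positive r to, among others, Atp1b2 (0.65) and Aldh1l1 (0.39). Sox9 and S100b, both widely used to count astrocytes, had r = -0.62. The first principal component over the standardized members held 30.2% of their variance and the second 21.3%, and 22 members had a positive and 8 a negative weight on the first. Against the mean of the other 29 members, Apoe (r = 0.74), Slc1a2 (0.71) and Ntsr2 (0.69) stood highest and Sox9 (-0.13) lowest with the signal as deposited. Aqp4 (0.12) and Hes5 (0.08), an effector of Notch signalling, were near 0. This order changed after quantile normalization, where Aldh1l1 stood highest (0.78, and 0.53 as deposited) and Gja1 lowest (-0.09), with Slc1a2 at 0.49, Hes5 at 0.33 and Sox9 at 0.17.

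**Figure D5:**
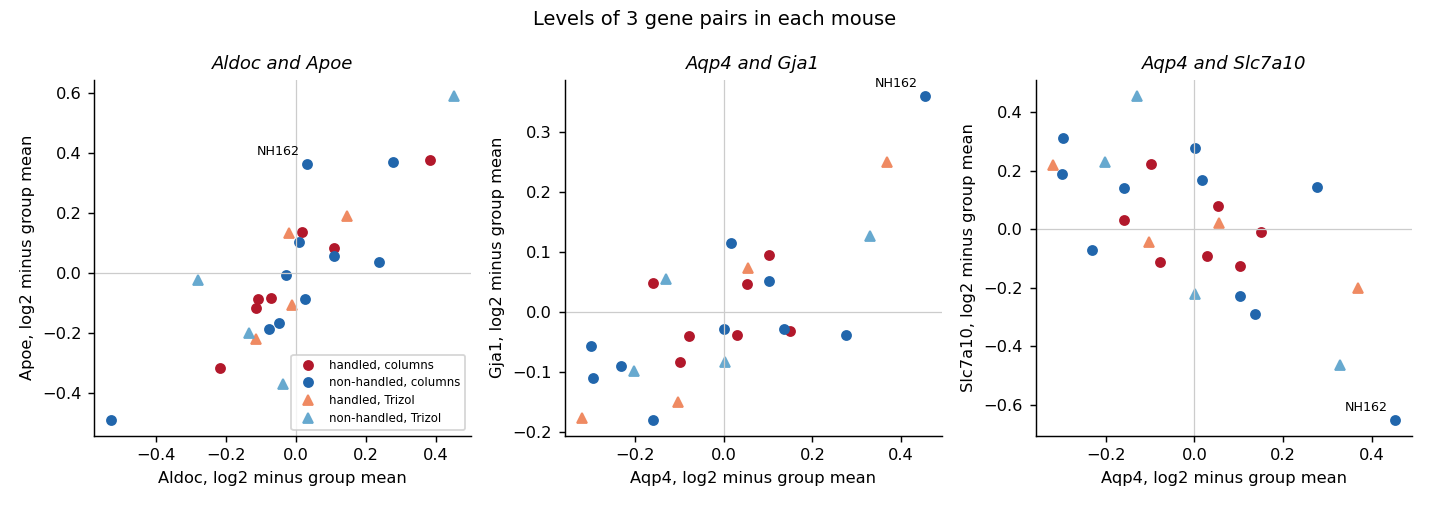
Log2 level of 3 pairs of members in each of the 25 mice, each less the mean of its group, with NH162 named. Aldoc and Apoe (r = 0.83) and Aqp4 and Gja1 (0.76) rise together, and Aqp4 and Slc7a10 (-0.70) run against each other, with NH162 at the end of the range of Aqp4.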

How the data were processed

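The array files hold MAS 5.0 signal, a linear intensity that the authors deposited after Affymetrix Expression Console, with each array scaled by 1 factor and no normalization between arrays. Its log2 was taken with no offset. Of 45101 probe sets 64 controls were left out, and 45037 were tested. The platform annotation gave 1 gene for 34958 probe sets, several for 932 and none for 9211. Differences were fitted with limma 3.58.1 (R 4.3.3, trended variance) and adjusted by Benjamini-Hochberg over all tested probe sets, with handling and extraction as terms or with 4 group means. Correlations and promoter searches used Python 3.11.15, numpy 2.4.6 and scipy 1.17.1, with 100000 permutations within groups. Upper 50% means a mean signal of at least 115. Precision is limited by the number of mice, since each array gives 1 value per probe set, and for handling also by the smaller number of litters.

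The members, lists and tests were chosen with earlier results of these data known. All members could be named, with values by mouse for those called for handling, those with the 6 largest handling differences, and Gfap, Aqp4, Slc1a2, Slc1a3, Gja1 and Glul, and, of other genes, the 10 most like the mean of the members and the leading ones of each list. Permutation was run for the 3 marker pairs and not for other pairs, which were picked as extremes or given for comparison. Single probe sets were picked after their values were seen. Alternatives were quantile normalization, an offset of 32, the upper 50% alone, no extraction term, array weights, each method fitted alone and each mouse left out, and, chosen after seeing the data, RNA control ratios as covariates. Scripts were tested on simulated data.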

Additional observations from a re-analysis of the deposited data

Results flagged for a closer look

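Of 120 groups of mice, 30 members in each of the 4 groups, 7 held a mouse apart from the rest by Dixon's ratio at its 95% bound, and chance flags about 1 in 20 such groups. The 7 came from 5 mice, and all values are log2 signals of leading probe sets.

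Handled column mouse H109 was lowest for Aldh1l1, at 10.19 where the others of its group read 10.60 to 10.91, and for Vim, at 9.19 against 9.74 to 9.92. Non-handled column mouse NH142 was lowest for Aldoc, at 14.55 against 15.00 to 15.36, and for Ntsr2, at 11.79 against 12.23 to 12.67. Both mice also had the lowest mean over the 30 members in their groups, at 0.030 and -0.016. NH162 was highest for Vim, at 10.58 against 9.25 to 9.73 in the other non-handled column mice. In handled Trizol mice, H130 was lowest for Gpc5, at 10.51 against 10.73 to 10.76, and H113 for Htra1, at 12.23 against 12.98 to 13.08.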

How the results depend on the processing

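Counts of members past an adjusted p under 0.05 were small and moved with the setting. For handling over all mice the count of 2 became 1 after quantile normalization and 0 without the extraction term. It was 1 to 3 with single mice left out (1 without H109, 3 without NH142, NH147, NH155, NH157, NH162 or H131). Counted by probe set and not by gene, 8 of the members' 71 probe sets passed. With columns the count of 5 became 2 after quantile normalization and 3 with column arrays fitted alone, and 2 to 6 with single mice left out (2 without H109, H116, H117 or NH156, 3 without H108, NH165, NH166 or NH170, 6 without NH142 or NH144). With Trizol, and for the difference between methods, it stayed at 0 in every setting run. For extraction 22 to 26 members passed in every setting, and the median of 0.80 became 0.64 after quantile normalization. Fits on Gfap, Aqp4 and Gja1 called 1, 1 and 2 members in the upper 50% alone, and 0 to 1 (1 without NH155, NH167, NH138 or NH144), 0 to 1 (1 without NH170) and 0 to 4 (4 without NH155, 2 without H113, H126, NH138 or NH144) with single mice left out. The median r over pairs was 0.119 with all probe sets averaged.

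Some differences changed sign, and the cause was not tested. For handling over all mice, RNA control ratios as covariates gave -0.0244 for Cpe, -0.0046 for Slc7a10, 0.0776 for Vim, 0.0403 for Slc1a2 and 0.029 for Gfap. Array weights gave 0.0039 for Fgfr3 and 0.0043 for Slc1a2. Without the extraction term Plpp3 was -0.043 and Gpc5 -0.0342. Quantile normalization gave 0.0642 for Slc1a2, 0.0163 for Aldoc and -0.0146 for Gpc5, and in column mice 0.0989 for Slc1a2 and 0.0275 for Aldoc. For extraction it gave -0.1895 for Glul (adjusted p = 0.0249), now a call, and the RNA control ratios gave -0.2187 for S100b. With single mice left out, handling over all mice ranged from -0.0234 to 0.0432 for Fgfr3, -0.0231 to 0.0305 for Slc1a2, -0.0927 to 0.0219 for Gfap, -0.1126 to 0.0427 for Hes5 and -0.0183 to 0.0603 for Gpc5. With columns it ranged from -0.0424 to 0.0274 for Fgfr3, -0.0718 to 0.0035 for Slc1a2, -0.1204 to 0.0097 for Slc1a3 and -0.1276 to 0.0074 for Gjb6. No paired analysis was possible because the labels give the mice no numbers shared between groups.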

Other observations

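Outside the 30 genes, 10 had the highest correlation with the mean of the members over the 25 mice, after the 4 group means were taken off, among 11356 genes in the upper 50%. They were Snph (r = 0.86), a syntaphilin that anchors mitochondria in axons, Hpcal4 (0.83), Csf1r (0.83), the growth factor receptor of microglia, Lamp1 (0.83), of lysosomes, Zc3h7b (0.82), Mcm7 (0.81), Gstm1 (0.81), a glutathione transferase of astrocytes, Sptbn1 (0.77), Clic4 (0.77) and Hadh (0.77). Several of these are known from neurons or microglia and 1 stood on the list of further astrocyte genes. Among members, which are part of that mean and were set against the mean of the others, 4 stood within the top 100 and 8 within the top 500, and their median r was 0.39 where that of all ranked genes was 0.04.

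The mean of the members ran with the mean of the 33 further astrocyte genes (r = 0.75, rho = 0.73), of the microglial list (0.69 and 0.69) and of the oligodendrocyte list (0.63 and 0.66). It showed little relation to the lists of pyramidal and general neurons (0.08 and -0.11) and of reactive astrocytes (0.12 and 0.08). Its r with the array's mean signal was 0.49 and with its median signal -0.05. These are descriptions over 25 mice that share arrays, amplification and scaling.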
